A study of Ovis aries with 36 samples.

Results

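ENSOARG00000018479 and ENSOARG00000010518 are 2 genes of the 27054 counted in brain tissue of fetal and newborn lambs. They were chosen by their measured levels, which earlier looks at these counts had shown to be high in preterm lambs, so all values by arm are given as a description without a test. RNA was sequenced from 4 brain regions of 9 lambs (cerebellum, hippocampus, basal ganglia and motor cortex), 1 library for each region and lamb, 36 in all. The preterm arm held lambs H (female) and I (male), delivered preterm and examined at once. Lambs F and G of the late preterm arm, both male, were delivered at 127 days and also examined at once. The supported arm held 5 lambs, of which A, B, D and E were female and C was male. These had been born preterm, were cannulated immediately and lived on EXTEND, an extrauterine support system for extremely immature newborns, until they were about as old as the late preterm arm. Neither the age at preterm delivery nor that at the end of support is stated in the labels. Each control arm rests on 2 animals.

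As background, the end of gestation is a time of fast brain growth in sheep, when synapses form, myelin is laid down and glia mature. The cerebellum, part of the hindbrain, grows late, because its granule neurons are still being produced when most neurons of the cerebral cortex are already in place. The Ensembl identifiers of these genes could not be paired with a symbol in the reference used here, so their products, positions, lengths and sequences are not described, the other genes of their pathways were not looked up, and the labelled regions were not checked against marker genes.

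Levels are given as CPM, the read count of a gene divided by all counts of its library and multiplied by 1000000. Libraries held 8782652 to 18153142 counts. Lambs A, H and I had the 12 shallower libraries (8782652 to 13020225) and lambs B to G the 24 deeper ones (13765297 to 18153142), so depth and preterm birth without support nearly coincide. Some libraries stood apart. The cerebellum of preterm lamb H lay at least 4-fold from the mean of the other cerebella in 3901 of 17450 genes, against 72 to 291 genes for the others. Both preterm hippocampus libraries, both late preterm basal ganglia libraries and the basal ganglia of preterm lamb I were among 10 libraries that resembled another region more than their own. Their part in the levels below was not tested, except where a value without them is given.

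ENSOARG00000018479 was highest in the preterm arm in the hippocampus, basal ganglia and cerebellum, and its late preterm mean lay between the preterm and supported means in those 3 regions. In the hippocampus it was at 6.67 CPM in preterm lamb H and 5.16 CPM in lamb I. The late preterm lambs F and G had 1.46 and 0.958 CPM. The supported lambs A to E had 1.25, 0.112, 1.08, 0.666 and 0.343 CPM. Both preterm lambs thus lay above the other 7, the lower of them 3.54 times the highest of the rest. The fitted log2 fold change from preterm to supported lambs was -3.12 ± 0.63 (SE, edgeR) and that from preterm to late preterm lambs was -2.29 ± 0.83. Across all 16370 genes tested in the hippocampus, 11.7% likewise had both preterm libraries above the rest, a share given for reference only, since arm levels chose these genes.

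The basal ganglia showed the widest gap for ENSOARG00000018479. Preterm lambs H and I had 13.7 and 10.8 CPM. The late preterm lambs had 2.37 (F) and 0.564 CPM (G), and the supported lambs A to E had 0.461, 0.116, 1.06, 0.111 and 0.232 CPM. The lower preterm value was 4.55 times the highest of the other 7, a separation that 7.49% of 16679 genes also showed in direction. From preterm to supported lambs the log2 fold change was -4.90 ± 0.78 (SE), the lowest of all 16679 genes. That rank is for reference only, since arm levels chose the gene, and 0 genes passed the edgeR threshold in this contrast. The low supported values rest on few reads, 2 each in lambs B and D, where the exact Poisson interval at 95% reached 0.42 and 0.402 CPM. Such intervals cover counting error only. Without the 5 basal ganglia libraries that resembled another region (lambs A, C, F, G and I), a choice made after the data were seen, the log2 fold change was -6.38. This set lamb H alone against supported lambs B, D and E, of which E had 4 reads.

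In the cerebellum ENSOARG00000018479 fell into 3 levels without overlap. Preterm lambs H and I had 26.0 and 9.12 CPM, late preterm lambs F and G had 5.67 and 3.99 CPM, and supported lambs A to E had 1.98, 0.919, 0.43, 0.953 and 0.604 CPM. The value of lamb H, the highest of this gene in the series, comes from the library that stood apart. Without lamb H the log2 fold change from preterm to supported lambs was -3.17, against -4.51 ± 0.59 (SE) with it, and lamb I alone still lay above the other 7. From preterm to late preterm lambs the change was -2.21 ± 0.75 (SE), and -0.86 without lamb H. For reference, both preterm libraries lay above the rest in 12.8% of 16304 genes, and both late preterm libraries above all supported ones in 5.04%. The share of genes with all 3 levels in this order was not counted for the cerebellum.

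The motor cortex broke this pattern for ENSOARG00000018479. Lamb H had the highest value, 5.93 CPM, but lamb I had the lowest of all 9, 0.197 CPM from 2 reads (exact Poisson interval 0.0239 to 0.712 CPM). The late preterm lambs had 3.15 and 3.01 CPM and the supported lambs A to E had 0.693, 1.26, 0.363, 1.6 and 1.32 CPM. The preterm values were thus 30.1-fold apart, and the log2 fold change to the supported arm was -1.50 ± 0.79 (SE). It was -2.44 without lamb I and 2.46 without lamb H. From preterm to late preterm lambs the log2 fold change was -0.006 ± 0.93 (SE), with means of 3.07 and 3.08 CPM. The same lamb I had the second highest level of this gene in each of the other 3 regions, so the label of a gene high in all preterm brain holds in 3 of 4 regions. For reference, 12.8% of 16173 genes had both preterm motor cortex libraries above the rest.

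**Figure D1:**
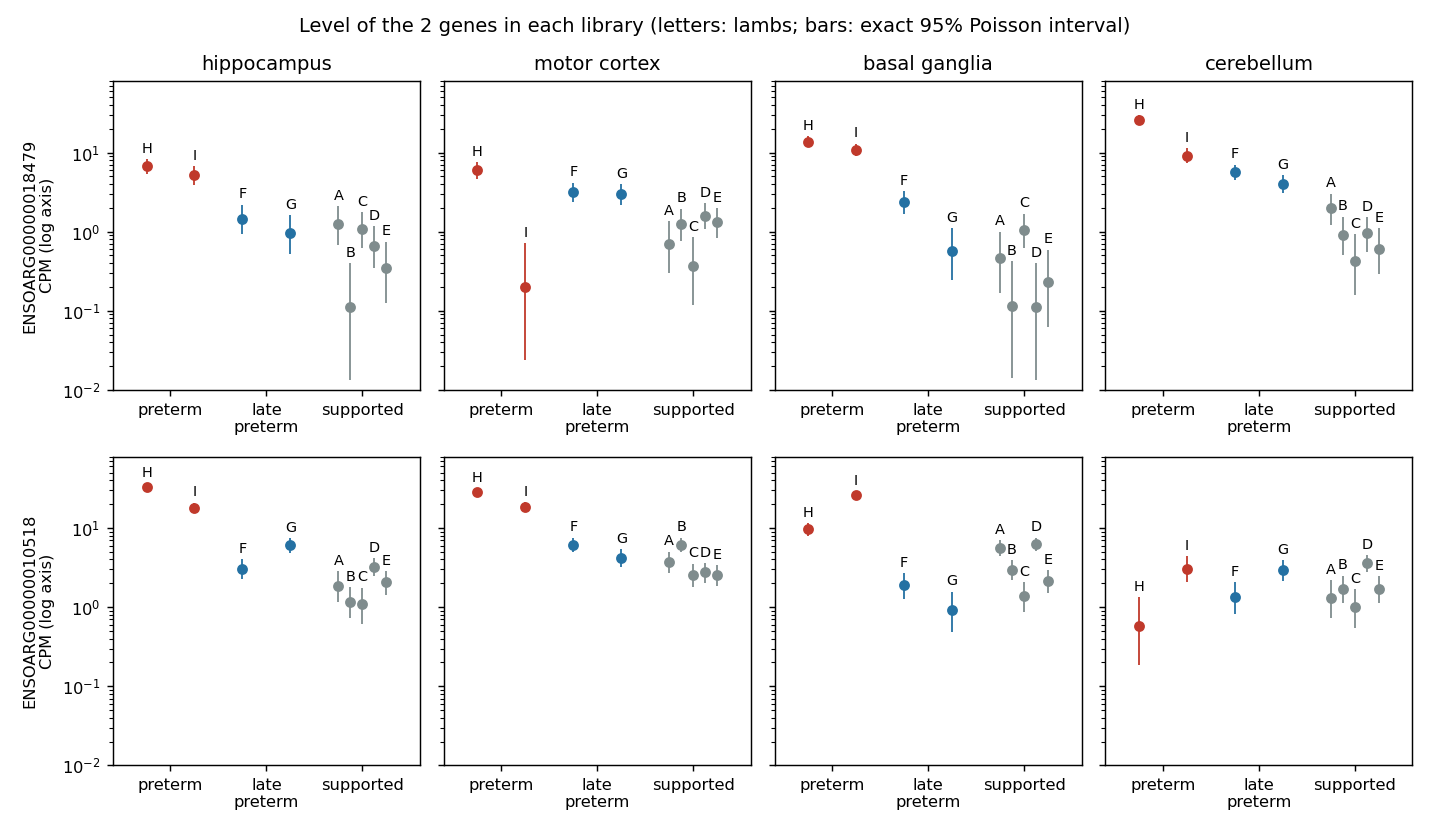
Level of each gene (CPM, log axis) in every library, by arm, with 1 panel for each region and gene; letters name lambs and bars are exact Poisson intervals at 95%. The preterm values (red) stand above the others except for ENSOARG00000018479 in the motor cortex of lamb I, at 0.197 CPM, and for ENSOARG00000010518 in the cerebellum, at 0.569 and 3.08 CPM.

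ENSOARG00000010518 was highest in both preterm lambs in the 3 forebrain regions and not in the cerebellum. Both preterm libraries lay above the rest in 11.7% of hippocampus genes, 12.8% of motor cortex genes and 7.49% of basal ganglia genes, again for reference only. In the hippocampus lambs H and I had 33.4 and 18.1 CPM, from 421 and 190 reads. Late preterm lambs F and G had 3.04 and 6.09 CPM. Supported lambs A to E had 1.87, 1.17, 1.08, 3.22 and 2.06 CPM. The lower preterm level was 2.98 times the highest of the rest. From preterm lambs the log2 fold change was -3.76 ± 0.44 (SE) to the supported and -2.52 ± 0.58 to the late preterm arm. The former ranked 7th from the lowest among 16370 genes, for reference only, since arm levels chose the gene.

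In the motor cortex ENSOARG00000010518 was at 28.3 and 18.4 CPM in preterm lambs H and I. It was at 6.18 and 4.21 CPM in late preterm lambs F and G, and at 3.73, 6.18, 2.54, 2.75 and 2.53 CPM in supported lambs A to E. The preterm lambs again stood 2.98-fold clear of the rest, and the late preterm and supported values overlapped. Fitted log2 fold changes were -2.67 ± 0.33 (SE) to the supported and -2.15 ± 0.43 to the late preterm lambs. These had the smallest standard errors of either gene in these contrasts, and with 1 lamb left out at a time the former stayed between -2.98 and -2.31.

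In the basal ganglia the order of the preterm lambs turned, with 9.64 CPM of ENSOARG00000010518 in lamb H and 26.2 CPM in lamb I. The supported lambs A to E had 5.61, 2.97, 1.37, 6.29 and 2.14 CPM, and the late preterm lambs had 1.88 (F) and 0.916 CPM (G). The gap was narrower here, the lower preterm level being 1.53 times the highest supported one. The log2 fold change from preterm to supported lambs was -2.28 ± 0.60 (SE), and -1.32 without lamb I, whose library resembled the motor cortex more than the basal ganglia. Without all 5 such basal ganglia libraries, which left lamb H alone in the preterm arm, it was -1.30. The log2 fold change from preterm to late preterm lambs was -3.60 ± 0.86 (SE), and -2.64 without lamb I.

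In the cerebellum ENSOARG00000010518 did not follow arm. Preterm lamb H had the lowest level of all 9 libraries, 0.569 CPM from 5 reads, and lamb I had 3.08 CPM, second to supported lamb D at 3.59 CPM. The other supported lambs had 1.32 (A), 1.71 (B), 1.0 (C) and 1.69 CPM (E), and the late preterm lambs had 1.35 and 2.92 CPM. The preterm mean of 1.82 ± 1.77 CPM (SD, n = 2) lay beside 1.86 CPM (n = 5) in the supported arm, a log2 fold change of -0.01 ± 0.65 (SE). With lamb H left out it was -0.63, with lamb I left out 1.29, and without the cerebella of lambs D, G and H -1.0. Its sign thus turned with the preterm lamb left out.

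**Figure D2:**
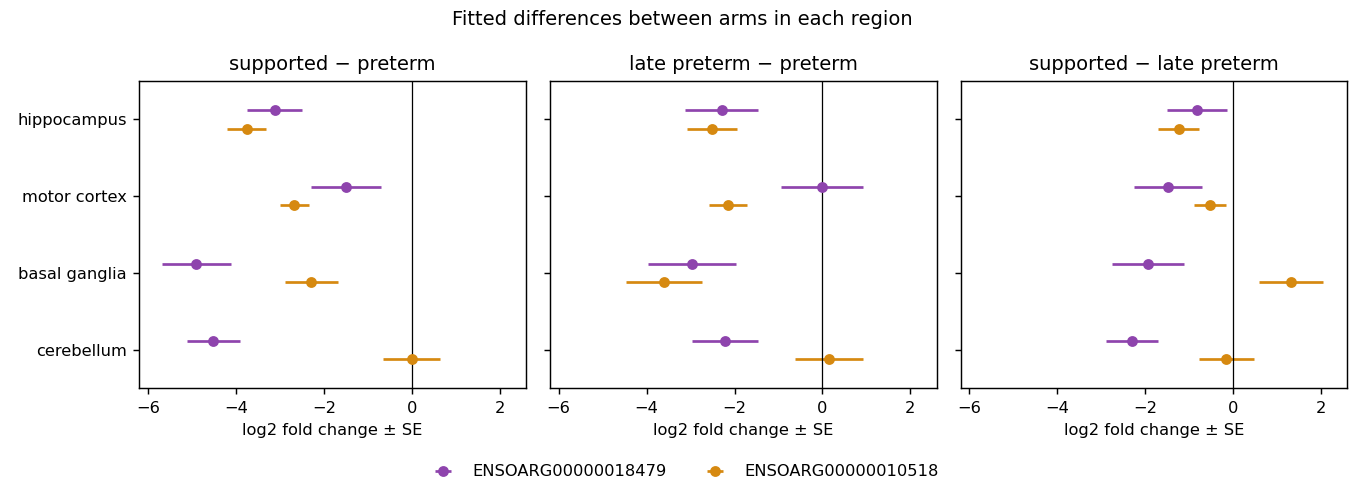
Log2 fold change between arms (horizontal axis, points with SE from edgeR) for both genes in each region; a value below 0 means lower in the first-named arm. ENSOARG00000018479 lies furthest below 0 between supported and preterm lambs in the basal ganglia (-4.90) and cerebellum (-4.51), where ENSOARG00000010518 is at -2.28 and -0.01.

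The late preterm and supported lambs, of similar age by the study's plan, separated for ENSOARG00000018479 in 2 of 4 regions. Both late preterm lambs lay above all 5 supported lambs in motor cortex, the lower of them 1.88 times the highest supported lamb, and in cerebellum, 2.01 times. Such a separation was shown by 12.4% of motor cortex genes and 5.04% of cerebellum genes. The log2 fold change from late preterm to supported lambs was -1.49 ± 0.77 (SE) and -2.30 ± 0.60. In the hippocampus (-0.83 ± 0.69) and basal ganglia (-1.94 ± 0.82) the arms overlapped, where 5.99% and 8.66% of genes separated. In the basal ganglia the value was -0.57 without lamb F. Sex goes with arm here, since both late preterm lambs were male. With sex as a covariate the values were -4.16 in motor cortex, -3.75 in cerebellum, -0.57 in hippocampus and -1.20 in basal ganglia. That covariate rests on the male lamb C among the supported and on lambs H and I. Lambs H (female) and I (male) were 30.1-fold apart in the motor cortex, where lamb I had 2 reads. They were 2.85-fold apart in the cerebellum, where the library of lamb H stood apart. The part of these 2 lambs in the values with sex was not tested. Of the 5 supported lambs, C had the lowest level in motor cortex and cerebellum, the second highest in hippocampus and the highest in basal ganglia.

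ENSOARG00000010518 overlapped between the late preterm and supported arms in all 4 regions. Its log2 fold change from late preterm to supported lambs was -1.24 ± 0.46 (SE) in the hippocampus, -0.53 ± 0.36 in the motor cortex, 1.32 ± 0.72 in the basal ganglia and -0.15 ± 0.63 in the cerebellum. With sex as a covariate these were -2.05, -1.04, 1.18 and -0.08 in the same order. The sign thus differed between regions, and in the basal ganglia late preterm lamb G was the lowest of 9. Both of those basal ganglia libraries resembled the hippocampus more than their own region.

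With the 4 regions of a lamb added together, ENSOARG00000018479 reached 12.1 CPM in lamb H and 6.34 CPM in lamb I, 3.12 and 2.16 CPM in lambs F and G, and 0.575 to 1.06 CPM (median 0.751) in the supported lambs. The 3 arms did not overlap, an order that 1.87% of 17450 genes showed, and 12.5% had both preterm sums above the rest. These shares are given for reference, as arm levels chose the genes. For ENSOARG00000010518 the sums were 19.5 and 16.9 CPM in H and I, 3.13 and 3.55 CPM in F and G, and 1.49 to 3.96 CPM (median 2.96) in the supported lambs. Here the late preterm lambs lay within the supported range. In these tissue libraries, fewer cells holding a transcript and less of it in each cell cannot be told apart.

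Lamb A is the only supported lamb in the shallower depth group, so only it can be set beside the preterm lambs at like depth. ENSOARG00000018479 was lower in lamb A than in both preterm lambs in the hippocampus, basal ganglia and cerebellum. ENSOARG00000010518 was lower in lamb A than in both in the hippocampus, motor cortex and basal ganglia. In each gene the exception was the region in which a preterm library had the lowest level of all 9. In the other regions both preterm lambs lay above all other lambs, so lamb A had to be lower. The comparison with lamb A thus adds nothing on depth. A fit with depth group as a term has the same limit, since only the supported arm holds both depth groups. From preterm to supported lambs it sets lamb A alone against lambs H and I. With this term, the log2 fold change of ENSOARG00000018479 from preterm to supported lambs was -2.25 ± 1.04 (SE) in the hippocampus and -3.50 ± 0.98 in the cerebellum. It was -2.13 ± 1.45 in the motor cortex and -4.63 ± 1.60 in the basal ganglia. From preterm to late preterm lambs the values were -1.13 in the hippocampus and -0.83 in the cerebellum, and these also hinge on lamb A. For ENSOARG00000010518 the same term gave, from preterm to supported lambs, -3.80 (hippocampus), -2.61 (motor cortex), -1.63 (basal ganglia) and -0.55 (cerebellum). The basal ganglia value without this term was -2.28.

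The spread between lambs was larger than counting error. In the supported arm the variance of ENSOARG00000018479 was 3.43 to 6.62 times what Poisson counting would give, over the 4 regions, and that of ENSOARG00000010518 was 5.93 to 20.8 times. Supported lambs had 2 to 29 reads of the former and 14 to 113 of the latter per library. In the basal ganglia the highest supported level of ENSOARG00000018479 was 9.49 times the lowest, and for ENSOARG00000010518 it was 4.6 times. Lamb D had the highest supported level of ENSOARG00000010518 in the hippocampus, basal ganglia and cerebellum, and lamb C the lowest in the same 3 regions.

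The regions were compared within lambs. The genes were chosen by arm and not by region, but the preterm libraries whose levels chose them enter these fits, so the supported lambs alone are given beside each call. ENSOARG00000010518 was lower in the cerebellum than in the motor cortex, at 1.91 ± 1.03 against 8.31 ± 8.97 CPM (SD, n = 9). The log2 fold change was -1.54 ± 0.43 (SE, edgeR quasi-likelihood test blocked on lamb, adjusted p = 0.00445), and 8 of 9 lambs showed this direction, lamb D being the exception. It was called under each of the alternatives run, with adjusted p at most 0.0175 with 1 lamb left out (edgeR). In the 20 supported libraries alone, free of the preterm lambs, it was -1.12 (edgeR adjusted p = 0.0137). Between these regions 48.4% of 17450 genes were called, so that a call as such is common.

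Against the hippocampus the cerebellum was also lower in ENSOARG00000010518, by a log2 difference of -1.09 ± 0.44 (SE, 7 of 9 lambs, edgeR adjusted p = 0.0423), where 46.9% of genes were called. This call did not hold in the supported lambs alone (-0.08, edgeR adjusted p = 0.86), where the mean was 1.88 CPM in the hippocampus and 1.86 CPM in the cerebellum, nor with lamb A, C, E, F, G, H or I left out (edgeR adjusted p up to 0.114). Against the basal ganglia the value was -1.04 ± 0.44 (SE, edgeR adjusted p = 0.0529, 8 of 9 lambs), just short of the threshold, with 45.6% of genes called. In the supported lambs alone it was -0.92 and passed (edgeR adjusted p = 0.0377). The 3 forebrain regions were not told apart, with edgeR adjusted p of 0.538 to 0.999. The supported lambs alone gave no call either. In them the motor cortex differed from the hippocampus by 1.04 ± 0.35 (SE, edgeR adjusted p = 0.0801). The basal ganglia differed from the hippocampus by 0.85 (edgeR adjusted p = 0.287) and from the motor cortex by -0.20 (edgeR adjusted p = 0.725). Of all genes, 0.395% were called between motor cortex and hippocampus, 0.0115% between basal ganglia and hippocampus and 5.72% between basal ganglia and motor cortex.

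ENSOARG00000018479 passed the threshold between no pair of regions. Its mean over lambs was 5.51 ± 8.2 CPM (SD, n = 9) in the cerebellum and 1.97 ± 2.31 CPM in the hippocampus. Between them the log2 difference was 1.18 ± 0.54 (SE, edgeR adjusted p = 0.0736), higher in the cerebellum in 8 of 9 lambs. From basal ganglia to cerebellum it was 1.1 ± 0.53 (SE, edgeR adjusted p = 0.0899, 7 of 9 lambs). In the 28 libraries of supported and late preterm lambs the basal ganglia were lower than the cerebellum (1.52, edgeR adjusted p = 0.0133) and the motor cortex (-1.58, edgeR adjusted p = 0.0331). Without lamb I the difference from basal ganglia to cerebellum was 1.44 and passed (edgeR adjusted p = 0.016), and so did that from hippocampus to cerebellum without lamb C or I (edgeR adjusted p = 0.0421 and 0.0393). The supported lambs alone gave none (edgeR adjusted p from 0.0942 to 0.599).

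**Figure D3:**
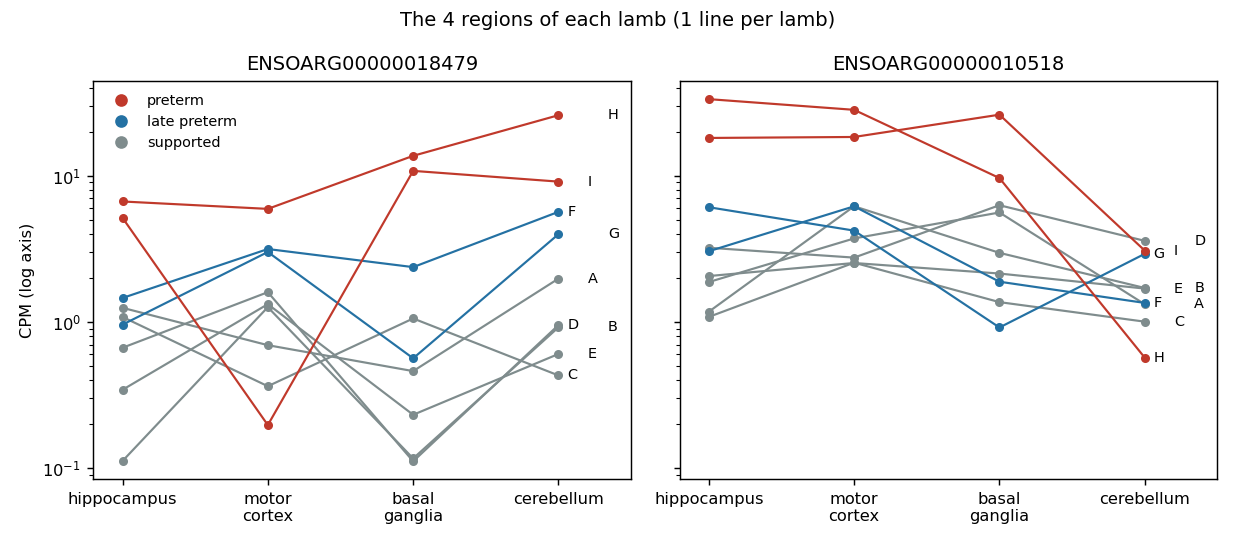
Level of each gene (CPM, log axis) across the 4 regions, 1 line per lamb and coloured by arm, with letters at the cerebellum. For ENSOARG00000010518 the preterm lines drop to 0.569 and 3.08 CPM at the cerebellum, and for ENSOARG00000018479 the line of preterm lamb I drops to 0.197 CPM at the motor cortex.

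Outside the preterm forebrain the 2 genes showed little relation to each other. Over 36 libraries their log2 CPM correlated at Pearson r = 0.267 and Spearman rho = 0.236, values given as a description because libraries share lambs and arms. In the 28 libraries without the preterm arm r was 0.0417, and in the 20 supported libraries -0.108. Over the 27 forebrain libraries, preterm ones included, it was 0.556. Each gene ranked far down the list of genes most like the other, at place 3463 and 4205 of 17449.

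The number of ENSOARG00000010518 reads per read of ENSOARG00000018479, which does not depend on depth or scaling, shifted by region in the preterm lambs. It was 5.01 and 3.52 in the hippocampus of lambs H and I, 0.704 and 2.42 in the basal ganglia and 0.0219 and 0.337 in the cerebellum. In the motor cortex it was 4.76 in lamb H and 93.5 in lamb I. The supported lambs had medians of 4.83 in the hippocampus, 4.9 in the motor cortex, 12.2 in the basal ganglia and 2.33 in the cerebellum. As gene lengths are not known here, the ratios are read only as shifts between libraries. In the cerebellum all 4 control libraries but 1 lay below the supported range of 0.667 to 3.76, late preterm lamb G at 0.733 being the exception.

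**Figure D4:**
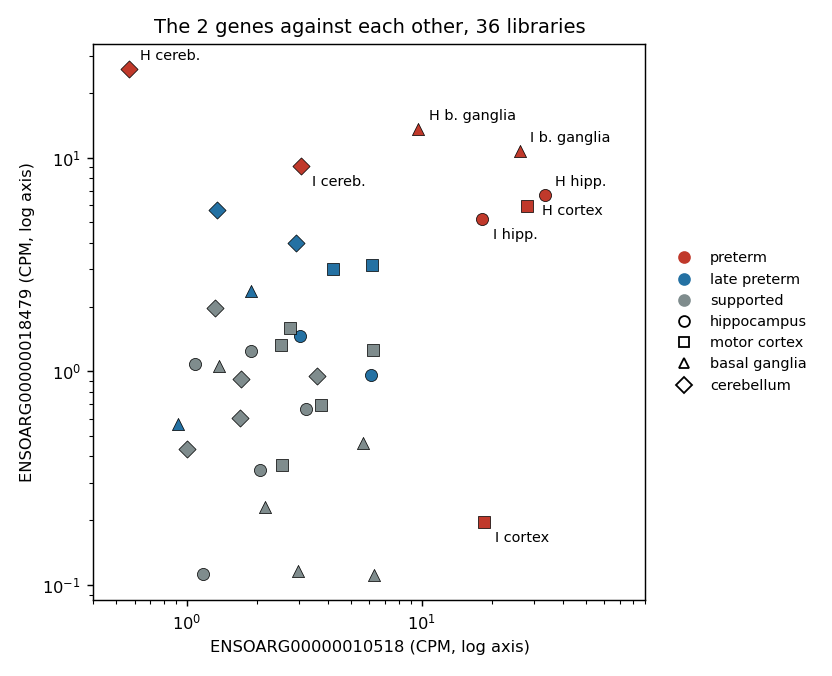
The 36 libraries by level of ENSOARG00000010518 (horizontal) and ENSOARG00000018479 (vertical), both in CPM on log axes, coloured by arm with a symbol for each region. Preterm forebrain libraries lie at the right, the preterm motor cortex of lamb I drops to 0.197 CPM on the vertical axis, and the preterm cerebella lie at 26.0 and 9.12 CPM on it with at most 3.08 CPM on the other.

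The gene whose log2 CPM over the 36 libraries was most like ENSOARG00000018479 was ENSOARG00000012268 (r = 0.838, the only 1 of 17449 genes above 0.8, and 0.616 without the preterm libraries). It was at 0.197 to 12.4 CPM in preterm, 0.705 to 1.95 in late preterm and 0.291 to 1.51 in supported libraries. Its highest value was also in the cerebellum of lamb H. Its lowest, 0.197 CPM from 2 reads, was in the motor cortex of lamb I. There ENSOARG00000018479 was lowest of the motor cortex libraries, though not of the series, where it fell to 0.111 CPM (basal ganglia of supported lamb D). For ENSOARG00000010518 it was ENSOARG00000003603 (r = 0.875, and 0.553 without the preterm libraries), and 30 genes were above 0.8. This gene was at 128 to 1790 CPM in preterm, 314 to 678 in late preterm and 175 to 603 in supported libraries. The lowest of its 36 values, 128 CPM, was in the cerebellum of lamb H, where ENSOARG00000010518 was also lowest. Both neighbours were picked by correlation over these same libraries, so shared extremes are part of that choice and no further likeness. The cerebellum of lamb H is the library that stood apart.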

How the data were processed

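Whole-number read counts for 27054 genes in 36 libraries were taken as deposited. The authors cleaned reads with fastp, mapped them to Ensembl's sheep genome of release 107 by STAR and deposited its unstranded read counts, as the series' design text says. Tool versions and the assembly's name were not found there. Without strand, reads of overlapping or antisense genes cannot be told apart. Of 35057 reference genes (ARS-UI_Ramb_v3.0), 0 could be paired with the identifiers.

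CPM here is the count divided by the column total, times 1000000. Fits used edgeR 4.0.16 in R 4.3.3 (TMM, filterByExpr, quasi-likelihood F-test, Benjamini-Hochberg over all tested genes, threshold 0.05): each region's 9 libraries by arm, and all 36 by region with the lamb as a block, because a lamb's 4 regions come from the same animal (deviations of its libraries correlated at 0.181 on average). Standard errors are the log2 fold change divided by the square root of F. DESeq2 1.42.0 was an alternative. The arm fit in the motor cortex and the region fit were tested on simulated data. The correlations used log2 CPM with TMM factors and a prior count of 2. The genes named besides the members were the nearest by this correlation, 1 for each. Libraries were matched to regions by correlation with the mean region profiles of the other lambs. Members and lists were chosen with earlier results of these data known. The planned gene lists and cell type markers needed symbols and were not used. Alternatives covered scaling, the filter, the samples fitted, sex, depth group, the block, libraries that stood apart and each lamb left out.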

Additional observations from a re-analysis of the deposited data

Results flagged for a closer look

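Of the 8 groups of supported lambs (4 regions, 2 genes), 1 held a lamb far from the others. ENSOARG00000010518 was at 3.59 CPM in the cerebellum of supported lamb D, and the distance to the next lamb was 0.728 of the group's whole range, above the 0.71 that is the limit for 5 samples. Chance marks about 1 in 20 such groups. The cerebellum library of lamb D correlated with the cerebellum profile of the other lambs at 0.486, and the part of this in the value was not tested.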

How the results depend on the processing

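Of 176 alternatives for the arm contrasts, 160 kept the value within 1 SD between lambs, as did 206 of 216 with a lamb left out. These counts overstate stability. The 216 include fits without a lamb of the arm not compared, which hardly move the value. From preterm to late preterm motor cortex, ENSOARG00000010518 was at -2.148, and at -2.147 without supported lamb D. The SD reached 1.36 (log2, ENSOARG00000018479, motor cortex), so -2.44 without lamb I, against -1.50 from preterm to supported lambs, counted as kept. Of 108 alternatives for the region contrasts, 96 stayed on the same side of the threshold, as did 96 of 108 with a lamb left out, and no called contrast reversed. Values below are log2 fold changes, and the cause of each move was not tested.

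With sex as a covariate, ENSOARG00000018479 was at -1.05 from preterm to late preterm and -3.75 from late preterm to supported lambs in the cerebellum, and at 2.47 and -4.16 in the motor cortex. ENSOARG00000010518 from late preterm to supported lambs was then at -2.05 (hippocampus) and -1.04 (motor cortex). The depth group term rests on lamb A, the only supported lamb in the shallower group. With it, ENSOARG00000018479 was at -2.25 (supported) and -1.13 (late preterm) against preterm in the hippocampus, and at -3.50 and -0.83 in the cerebellum. Without the cerebella of lambs D, G and H it was at -3.16 and -0.60, and ENSOARG00000010518 at -1.0 and -1.10. Without the basal ganglia libraries that resembled another region, chosen after seeing the data, supported against preterm was -6.38 for ENSOARG00000018479 and -1.30 for ENSOARG00000010518. In that set lamb H alone stood for the preterm arm. Column totals alone moved the median of all genes in the cerebellum by 0.142 (supported against preterm) and 0.174 (late preterm against preterm).

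With 1 lamb left out, ENSOARG00000010518 ranged in the basal ganglia from -4.21 to -2.64 (late preterm against preterm) and -2.86 to -1.32 (supported against preterm), and in the cerebellum from -0.49 to 1.44 and -0.63 to 1.29. ENSOARG00000018479 ranged in the basal ganglia from -4.34 to -2.29 (late preterm against preterm) and -2.79 to -0.57 (supported against late preterm), in the cerebellum from -2.88 to -0.86 and -5.19 to -3.17 (late preterm and supported against preterm), and in the motor cortex from -0.95 to 3.95 and -2.44 to 2.46.

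For the region contrasts, the lamb as a block was compared with no replicate block. Cerebellum against basal ganglia for ENSOARG00000010518 passed without the block (-1.04, edgeR adjusted p = 0.0498), with RLE factors (-1.05, 0.0484), with DESeq2 (-1.04, 0.0253), in supported lambs (-0.92, 0.0377) and without the cerebella of D, G and H (-1.15, 0.031), and ranged from -1.28 to -0.76 with 1 lamb left out. The block changed no other call of these genes. Cerebellum against hippocampus for this gene failed with column totals alone (-1.05, edgeR adjusted p = 0.0574), in supported lambs (-0.079, 0.86), in supported and late preterm lambs (-0.46, 0.307) and without the libraries resembling another region (-0.56, 0.417), and ranged from -1.29 to -0.70 with 1 lamb left out. For ENSOARG00000018479, cerebellum against basal ganglia passed with DESeq2 (1.19, adjusted p = 0.0469) and in supported and late preterm lambs (1.52, edgeR 0.0133), where basal ganglia against motor cortex passed too (-1.58, 0.0331). With 1 lamb left out, its contrasts of cerebellum with basal ganglia and hippocampus ranged from 0.91 to 1.44 and 0.96 to 1.43. The correlation of the genes was 0.556 without cerebella.

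Called genes between basal ganglia and hippocampus numbered 2 (1087 at unadjusted p under 0.05), and 40 with DESeq2, 9 without the block, 0 in supported lambs, 0 in supported and late preterm lambs, 10 without the cerebella of D, G and H and 76 without the libraries resembling another region. Between basal ganglia and motor cortex DESeq2 gave 1790, no block 893, supported lambs 2377, supported and late preterm lambs 3553, the set without 3 cerebella 2726 and the set without libraries resembling another region 1831, against 998. Between motor cortex and hippocampus DESeq2 gave 267, no block 125, supported lambs 1163, supported and late preterm lambs 490 and the set without 3 cerebella 143, against 69. Without the libraries resembling another region the cerebellum gave 4917 against basal ganglia and 5318 against hippocampus, down from 7949 and 8178. With 1 lamb left out the first 3 contrasts gave 0 to 3, 349 to 1972 and 16 to 175.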
